A study of Mus musculus with 6 samples.

Results

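Gene counts of 10 neutrophil and monocyte marker genes were compared between 2 sets of mouse RNA-seq libraries: 3 carry the label TNFR2-deficient Treg, and for the other 3 the label is TNFR2 positive Treg. The genes were S100a8, S100a9, Ngp, Csf3r, Cd14, Lyz2, Ly6c2, Itgam, Fcer1g and Tyrobp, taken by symbol from 32377 gene identifiers in the table, where all 10 were found. Regulatory T (Treg) cells are CD4 T cells that restrain other immune cells through the transcription factor Foxp3, and TNFR2 is the receptor for tumour necrosis factor encoded by Tnfrsf1b. The labels give neither tissue, age, strain nor sort, nor say whether the deficiency was genetic or separates cells by surface TNFR2, and they do not tie the libraries to individual animals. P-values therefore weigh differences against library-to-library spread within a group, part or all of which could be technical.

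Neutrophils are short-lived phagocytes made in bone marrow, which load their granules in successive stages of maturation and then acquire the receptors of the circulating cell. Monocytes are also made in marrow, circulate, and can become macrophages in tissue. S100a8 and S100a9 encode the subunits of calprotectin, a calcium-binding pair that fills the neutrophil cytosol, and Ngp encodes a protein of the specific granules. Csf3r is the receptor for G-CSF, Cd14 the coreceptor that hands lipopolysaccharide to TLR4, Lyz2 the lysozyme of phagocytes, and Ly6c2 a surface protein of inflammatory monocytes that some T and NK cells also carry. Itgam is the integrin chain CD11b, while Fcer1g (FcRgamma) and Tyrobp (DAP12) are signalling adaptors of activating receptors in myeloid and NK cells. T cells are not known for most of these transcripts, so their levels in libraries labelled as Treg describe which RNA the libraries contained.

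The 4 promoters below are shown because these neutrophil genes behaved differently: S100a8 and S100a9 did not pass the test, Ngp was higher and Csf3r lower in the TNFR2-deficient libraries. Each is the 250 bases before the annotated start, from RefSeq on build GRCm38.p6, read 5′ to 3′ on the gene's strand. Capitals mark matches, on either strand, to 3 motifs: the PU.1 core GAGGAA, the C/EBP motif TTGCNNAA and the TATA box TATAAA. The S100a8 window is chr3:90668821-90669070 on the plus strand, S100a9 chr3:90695722-90695971 on the minus strand, Ngp chr9:110419558-110419807 on the plus strand and Csf3r chr4:126024409-126024658 on the plus strand.
S100a8: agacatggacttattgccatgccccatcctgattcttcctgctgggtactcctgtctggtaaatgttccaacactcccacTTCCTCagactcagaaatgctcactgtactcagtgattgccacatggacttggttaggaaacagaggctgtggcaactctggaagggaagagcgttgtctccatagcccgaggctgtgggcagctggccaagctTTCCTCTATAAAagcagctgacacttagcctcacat
S100a9: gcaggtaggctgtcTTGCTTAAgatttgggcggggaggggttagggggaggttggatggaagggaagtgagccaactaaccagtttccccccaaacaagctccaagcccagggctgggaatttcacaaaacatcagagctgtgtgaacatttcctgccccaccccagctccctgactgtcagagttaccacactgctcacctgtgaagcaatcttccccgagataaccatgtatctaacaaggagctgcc
Ngp: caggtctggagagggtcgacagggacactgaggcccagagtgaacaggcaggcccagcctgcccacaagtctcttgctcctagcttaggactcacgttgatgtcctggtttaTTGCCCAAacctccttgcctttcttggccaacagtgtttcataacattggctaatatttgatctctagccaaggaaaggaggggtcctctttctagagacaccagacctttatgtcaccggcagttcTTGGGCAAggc
Csf3r: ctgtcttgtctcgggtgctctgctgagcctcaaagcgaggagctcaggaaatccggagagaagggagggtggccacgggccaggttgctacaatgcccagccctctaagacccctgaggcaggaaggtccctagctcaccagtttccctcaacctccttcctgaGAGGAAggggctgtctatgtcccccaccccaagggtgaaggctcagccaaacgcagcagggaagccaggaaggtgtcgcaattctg
The S100a8 window held the PU.1 letters at 2 positions, the nearer one 36 to 31 bases before the start and directly followed by a TATA box 30 to 25 bases before it. The S100a9 window held 1 C/EBP match and the Ngp window 2, at 138 to 131 and 11 to 4 bases before the start. Csf3r had 1 PU.1 match, 86 to 81 bases before the start. Among 32851 promoter windows of the same length, 23.3% held the PU.1 letters, 9.6% the C/EBP letters and 12.4% the TATA letters. A match describes the letters only. Of the 10 genes, 8 matched an entry in the promoter table; Cd14 and Tyrobp did not.

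The libraries held 19296082 to 24038118 counts, so that a floor of 3 counts lay at 0.125 to 0.154 CPM (CPM sets each library's counts to a common total, here adjusted by TMM, the trimmed mean of M-values), which covers counting error only. Tnfrsf1b was at 7.87 ± 0.503 CPM in the TNFR2-deficient and 83.0 ± 2.48 CPM in the TNFR2-positive libraries (mean ± SD, n = 3 each, as throughout), and Foxp3 at 1.44 ± 0.0974 against 75.5 ± 2.14 CPM, with 31 to 35 counts of Foxp3 in each TNFR2-deficient library. B cell transcripts were abundant in both groups and thymocyte transcripts in the TNFR2-deficient one. The summed level of 9 B cell markers was 12700 to 13340 CPM in the TNFR2-deficient and 10680 to 11310 CPM in the TNFR2-positive libraries. Among thymocyte genes, Dntt, which adds bases at receptor gene joints, had 489.2 ± 9.95 against 2.05 ± 0.283 CPM, while Rag1, which cuts DNA for that joining, had 917.9 ± 72.7 against 3.31 ± 0.0785 CPM. In the test over all genes, 69.3% of 17022 genes passed the threshold, 35.1% as higher and 34.2% as lower in the TNFR2-deficient libraries, with a median log2 fold change of 0.04. TNFR2-positive library 1 stood apart from its replicates, with a chi-square of 13.9 and 18.5 per gene against them, beside 2.43 to 4.44 for the other pairs within a group. Without it, 5 of the 10 marker genes were still higher and 2 lower.

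The marker genes did not move as 1 group. Of the 10, 5 were higher in the TNFR2-deficient libraries (Ngp, Cd14, Fcer1g, Tyrobp and Lyz2), 2 were lower (Csf3r and Ly6c2) and 3 did not pass the test (S100a8, S100a9 and Itgam). The 70% that passed stands beside 69.3% of all genes, a share near that of genes at large. Their median log2 fold change was 0.25 against 0.04 over all genes. The 10 genes together took 0.0574% ± 0.00197 of the counts in the TNFR2-deficient and 0.0496% ± 0.0034 in the TNFR2-positive libraries, with no overlap between groups (exact permutation test, two-sided p = 0.10, the smallest that 3 against 3 allows). In such bulk libraries, fewer cells of a type and less RNA per cell cannot be told apart.

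**Figure D1:**
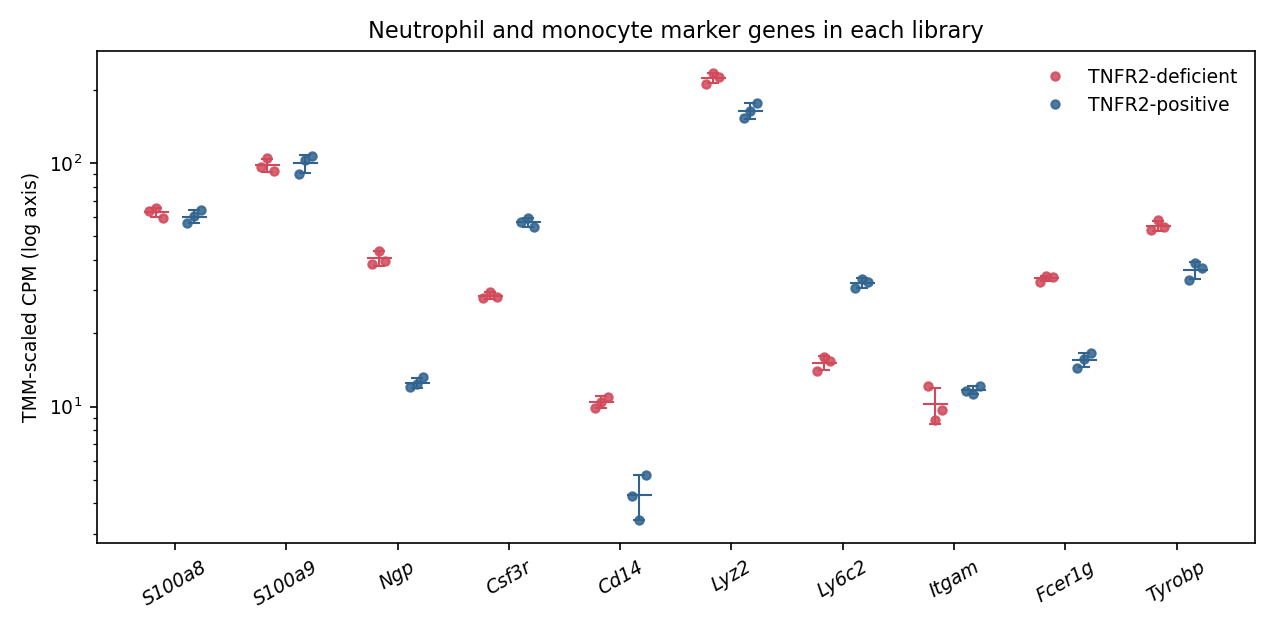
TMM-scaled CPM (log axis) of the 10 marker genes; points are libraries, and bars give the mean ± SD of 3 libraries in the TNFR2-deficient (red) and TNFR2-positive (blue) group. S100a8, S100a9 and Itgam overlap between the groups, and the other 7 genes do not. The share of all genes without overlap was not counted.

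S100a8 and S100a9, the calprotectin genes, did not pass the test. In order of library number, S100a8 (ENSMUSG00000056054) had 63.3, 65.3 and 59.6 CPM in the TNFR2-deficient group and 56.4, 60.3 and 64.1 CPM in the TNFR2-positive group. The groups overlapped, and the fold change of 1.04 had a 95% interval of 0.940 to 1.15 (edgeR's quasi-likelihood test, adjusted p = 0.46). S100a9 (ENSMUSG00000056071) had 96.4, 104.4 and 93.0 CPM in the TNFR2-deficient libraries. In the TNFR2-positive libraries it was at 90.2, 102.4 and 106.6 CPM, again with overlapping groups (fold change 0.982, 95% interval 0.877 to 1.10, edgeR adjusted p = 0.771). The count of S100a9 per count of S100a8 was 1.56 ± 0.0373 against 1.65 ± 0.051, a ratio that also overlapped.

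Ngp was the marker with the largest fold change of the 10. This specific granule gene (ENSMUSG00000032484) had 38.5, 43.7 and 39.5 CPM in the TNFR2-deficient libraries against 12.04, 12.4 and 13.2 CPM in the TNFR2-positive ones. All TNFR2-deficient libraries lay far above all others (log2 fold change 1.70, SE 0.078, edgeR adjusted p = 7.39e-09), a 3.24-fold rise. Csf3r, the G-CSF receptor of maturing and circulating neutrophils (ENSMUSG00000028859), went the other way. It was at 27.9, 29.5 and 28.2 CPM against 57.3, 59.5 and 54.7 CPM, without overlap and 2.00-fold lower in the TNFR2-deficient libraries (log2 fold change -1.001, SE 0.0634, edgeR adjusted p = 1.06e-07).

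Within a library, ratios between markers do not depend on scaling. For each count of S100a8 there were 0.609, 0.668 and 0.663 counts of Ngp in the TNFR2-deficient and 0.213, 0.205 and 0.205 in the TNFR2-positive libraries. The ratio of Csf3r to S100a8 was 0.442, 0.452 and 0.473 against 1.02, 0.986 and 0.853. Ngp per Csf3r was thus 1.42 ± 0.0532 against 0.22 ± 0.0182, a 6.47-fold gap between genes that neutrophils express. The pairs of genes were chosen after their values were seen, so these and the other ratios of markers are a description with no test.

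**Figure D2:**
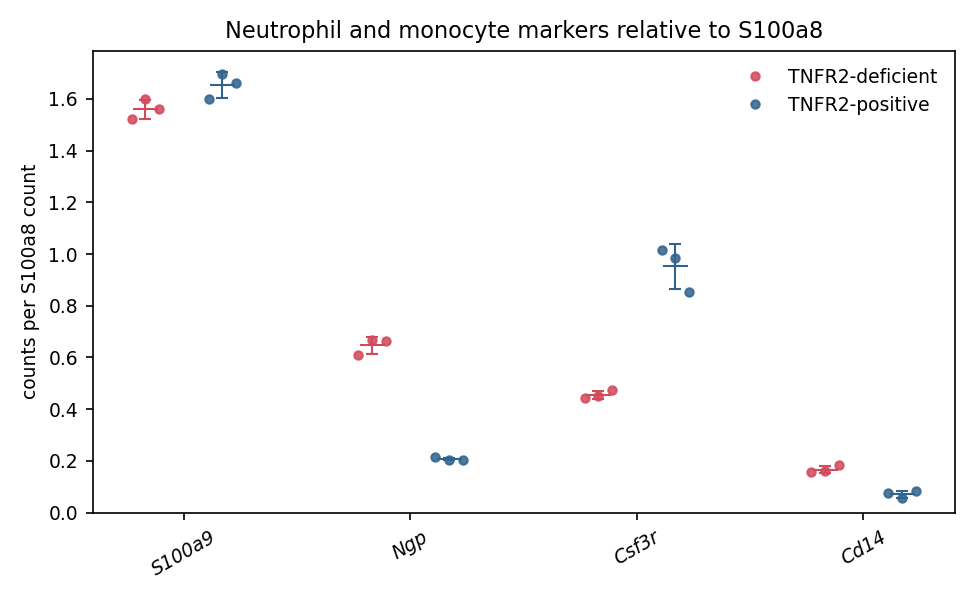
Counts of S100a9, Ngp, Csf3r and Cd14 per count of S100a8 in each library (points), with the mean ± SD of 3 libraries per group. Ngp and Cd14 are higher and Csf3r lower per S100a8 count in the TNFR2-deficient libraries (red), and S100a9 overlaps.

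Other neutrophil genes, from lists of granule and cytosol genes and of surface receptors and regulators, moved in both directions. Of 13 granule and cytosol genes tested, 6 rose and 4 fell in the TNFR2-deficient libraries (76.9% passed; median log2 fold change -0.06). Among those that rose were Camp, the precursor of the antimicrobial peptide CRAMP, from 1.87 ± 0.523 to 6.56 ± 0.805 CPM (edgeR adjusted p = 6.65e-06), Ltf, the iron-binding lactoferrin, from 7.04 ± 1.01 to 16.5 ± 0.517 CPM (adjusted p = 1.76e-06) and Lcn2, a siderophore-binding lipocalin, from 7.71 ± 0.151 to 12.8 ± 0.591 CPM (adjusted p = 3.55e-05). Pglyrp1, a peptidoglycan-binding granule protein, and Padi4, the enzyme that citrullinates histones in neutrophils, rose 1.52-fold and 1.69-fold, and the granule membrane gene Cd63, which many cells express, 2.31-fold. Those that fell were Mmp8 and Mmp9, the neutrophil collagenase and gelatinase (2.21-fold and 1.67-fold lower), the resistin-like Retnlg (1.85-fold lower) and the chitinase-like Chil3 (1.43-fold lower). Once each library's dependence on gene length was taken out, 6 of the 13 rose and 5 fell. Elane, Mpo, Prtn3 and Ctsg, which encode enzymes of the primary granules made at the promyelocyte stage, had 0 to 8 counts per library in either group and were too low to be tested.

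Of 17 surface receptors and regulators tested, 5 rose and 8 fell (76.5% passed; median log2 fold change -0.34). Beside Csf3r, the chemokine receptor Cxcr2, which guides mature neutrophils, fell from 18.0 ± 1.49 to 7.07 ± 1.64 CPM (edgeR adjusted p = 6.48e-06). The cytokine gene Il1b fell from 45.0 ± 1.46 to 22.6 ± 1.17 CPM (adjusted p = 1.92e-07), and the activating receptor Trem1 was 2.65-fold lower and the interleukin-1 decoy receptor Il1r2 2.19-fold lower. Among those that rose were the formyl peptide receptors Fpr1 and Fpr2 (2.57-fold and 1.64-fold) and Gfi1, a repressor needed for neutrophil differentiation that lymphocytes and thymocytes also express (36.9 ± 1.30 against 13.3 ± 0.594 CPM, adjusted p = 1.21e-08). The myeloid transcription factor Spi1 (PU.1), which B cells share, rose 1.43-fold and Cebpa 1.80-fold, whereas Cebpb was 1.54-fold lower. Ly6g, the surface marker of mouse neutrophils, stood at 0.721 ± 0.201 against 0.446 ± 0.201 CPM, close to the floor, with an adjusted p of 0.142.

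Signalling partners of Csf3r are shared with other receptors. Of 12 colony stimulating factor receptors and their signalling genes, 3 rose and 7 fell (83.3% passed; median log2 fold change -0.67). Csf2rb, the chain common to the GM-CSF, IL-3 and IL-5 receptors, fell from 43.5 ± 1.45 to 20.4 ± 0.467 CPM (edgeR adjusted p = 6.37e-08), and Socs3, the feedback inhibitor of Csf3r signalling, from 81.0 ± 4.07 to 36.5 ± 2.74 CPM (adjusted p = 9.48e-08). Csf1r, the receptor for M-CSF on monocytes and macrophages, rose instead from 81.7 ± 0.308 to 177.3 ± 4.26 CPM (adjusted p = 1.49e-08). The count of Csf3r per count of Csf1r was 0.161 ± 0.00211 against 0.70 ± 0.0274. Once each library's dependence on gene length was taken out, 4 of the 12 genes rose and 7 fell (median log2 fold change -0.49).

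Cd14 and Lyz2, genes of monocytes, macrophages and, for Lyz2, neutrophils too, were higher. Cd14 (ENSMUSG00000051439) was at 9.86, 10.47 and 10.98 CPM where TNFR2 was labelled deficient and at 4.29, 3.43 and 5.24 CPM where it was labelled positive. No library of 1 group reached the other (2.41-fold, log2 fold change 1.27, SE 0.144, edgeR adjusted p = 1.1e-05). Lyz2 (ENSMUSG00000069516), the most abundant of the 10 by counts, was at 211.9, 233.1 and 224.8 CPM against 152.7, 163.5 and 176.6 CPM, a 1.36-fold rise without overlap (log2 fold change 0.44, SE 0.0684, adjusted p = 0.000119). Its close paralog Lyz1, with which reads can be shared, rose 2.35-fold at 6.03 against 2.58 CPM.

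Ly6c2, the Ly6C antigen gene (ENSMUSG00000022584), was lower. Its levels were 14.0, 16.0 and 15.4 CPM in the TNFR2-deficient and 30.7, 33.5 and 32.5 CPM in the TNFR2-positive libraries, without overlap and 2.13-fold lower (log2 fold change -1.09, SE 0.0777, edgeR adjusted p = 2.9e-07). The near-identical neighbour Ly6c1, which can share its reads, was also lower, at 3.58 against 8.70 CPM, so the split of counts between these genes is uncertain. Ly6c2 and Lyz2 thus diverged: 0.0677 ± 0.00153 counts of Ly6c2 per count of Lyz2 stood against 0.197 ± 0.0113.

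Of 20 other monocyte and macrophage genes, 13 rose and 6 fell (95% passed, median log2 fold change 0.46). These counts include Lyz1 and Ly6c1, which can share reads with Lyz2 and Ly6c2. Among those that rose were F13a1, the coagulation factor XIII A chain, from 6.66 ± 1.60 to 42.7 ± 2.99 CPM (edgeR adjusted p = 9.69e-09), and the lysosomal Cd68, from 16.8 ± 0.293 to 52.1 ± 4.44 CPM (adjusted p = 9.1e-09). Ccr2, the receptor by which Ly6C-high monocytes leave the marrow and which activated T cells also carry, fell from 33.7 ± 4.34 to 6.17 ± 1.01 CPM (adjusted p = 2.11e-08). Vcan, a proteoglycan of classical monocytes, fell from 2.07 ± 0.37 to 0.405 ± 0.0973 CPM (adjusted p = 2.89e-05), and Ly6c1, Itgax, Cx3cr1 and Ms4a6c fell too. Vcan had only 7, 11 and 10 counts in the TNFR2-deficient libraries, close to the floor. Its log2 fold change was -2.34, and -1.75 with the dependence on gene length taken out. Of 6 genes of the phagocyte oxidase, which B cells also express, 4 rose by 1.20-fold to 1.58-fold and 1 fell, Cybb (1.55-fold lower). The 83.3% that passed stands beside 69.3% of all genes.

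Of 11 tested genes of the receptor pathway for lipopolysaccharide around Cd14, 3 rose and 4 fell (median log2 fold change -0.07); the 63.6% that passed lies below the 69.3% of all genes. Ly96, which encodes the MD-2 subunit that binds lipopolysaccharide, rose from 3.44 ± 0.267 to 7.45 ± 0.665 CPM (edgeR adjusted p = 1.74e-05). Tlr4 itself stood at 13.8 ± 0.39 against 17.6 ± 5.08 CPM (adjusted p = 0.0693). The kinase Irak4 and the ubiquitin ligase Traf6, shared by many Toll-like and interleukin-1 receptors, fell 1.54-fold and 1.77-fold (adjusted p = 8.77e-06 and 1.43e-06), and Ager, a receptor that binds S100 proteins, rose 1.82-fold (adjusted p = 9.24e-05).

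The adaptors Fcer1g and Tyrobp were both higher. Fcer1g (ENSMUSG00000058715) had 32.6, 34.3 and 33.9 CPM in the TNFR2-deficient libraries against 14.4, 15.7 and 16.6 CPM. Every TNFR2-deficient library was above every TNFR2-positive one (2.16-fold, log2 fold change 1.11, SE 0.0748, edgeR adjusted p = 1.82e-07). Tyrobp (ENSMUSG00000030579) was at 53.1, 58.2 and 54.6 CPM against 33.0, 38.9 and 37.2 CPM, a smaller rise of 1.52-fold, also without overlap (log2 fold change 0.61, SE 0.0737, adjusted p = 1.88e-05). The count of Fcer1g per count of Tyrobp was 0.608 ± 0.0155 against 0.429 ± 0.0229.

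Of 14 tested genes of receptors that pair with these adaptors and of the kinases and chains around them, 6 rose and 4 fell (median log2 fold change 0.20); the 71.4% that passed is near the 69.3% of all genes. Fcgr1, Fcgr3 and Fcgr4, the activating receptors for IgG on phagocytes that need FcRgamma, rose 2.92-fold, 2.55-fold and 2.45-fold (edgeR adjusted p = 4.84e-06, 7.71e-08 and 3.82e-07). Ncr1 and Klrk1, activating receptors of NK cells (Klrk1 also of CD8 T cells), fell 4.21-fold and 2.80-fold (adjusted p = 9.35e-08 and 6.45e-08). Cd247, the zeta chain of the T cell receptor and a relative of FcRgamma, rose from 61.5 ± 5.15 to 169.9 ± 8.48 CPM (adjusted p = 1.39e-08). Syk, the kinase that these adaptors recruit and that is abundant in B cells, fell 1.34-fold and its T cell relative Zap70 rose 1.41-fold; once each library's dependence on gene length was taken out, the log2 fold change of Syk was -0.02 (adjusted p = 0.755).

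Itgam, the alpha chain of the complement receptor CR3 (ENSMUSG00000030786), did not pass the test. Its TNFR2-deficient libraries had 12.2, 8.80 and 9.65 CPM and the others 11.6, 11.3 and 12.1 CPM. The groups overlapped only through TNFR2-deficient library 1 (log2 fold change -0.19, 95% interval -0.46 to 0.07, edgeR adjusted p = 0.177), and without that library the log2 fold change was -0.34 and passed (adjusted p = 0.023, against 0.023 to 0.50 over all alternatives). In the annotation used for lengths, 3450 exonic bases of Itgam also belong to the gene model Gm49368 on the same strand, which had 0 to 4 counts, so reads in the shared part may be missing from the Itgam count. Its relatives moved apart: Itgax (CD11c) was 2.12-fold lower, Itgad (CD11d), an integrin of splenic macrophages, 2.33-fold higher and Itgal (CD11a) of lymphocytes 1.69-fold lower. The shared partner chain Itgb2 stood at 240.5 ± 4.49 against 262.0 ± 4.49 CPM (edgeR adjusted p = 0.0616). With the dependence on gene length taken out, the log2 fold change of Itgb2 was -0.21 and passed (edgeR adjusted p = 0.00112).

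**Figure D3:**
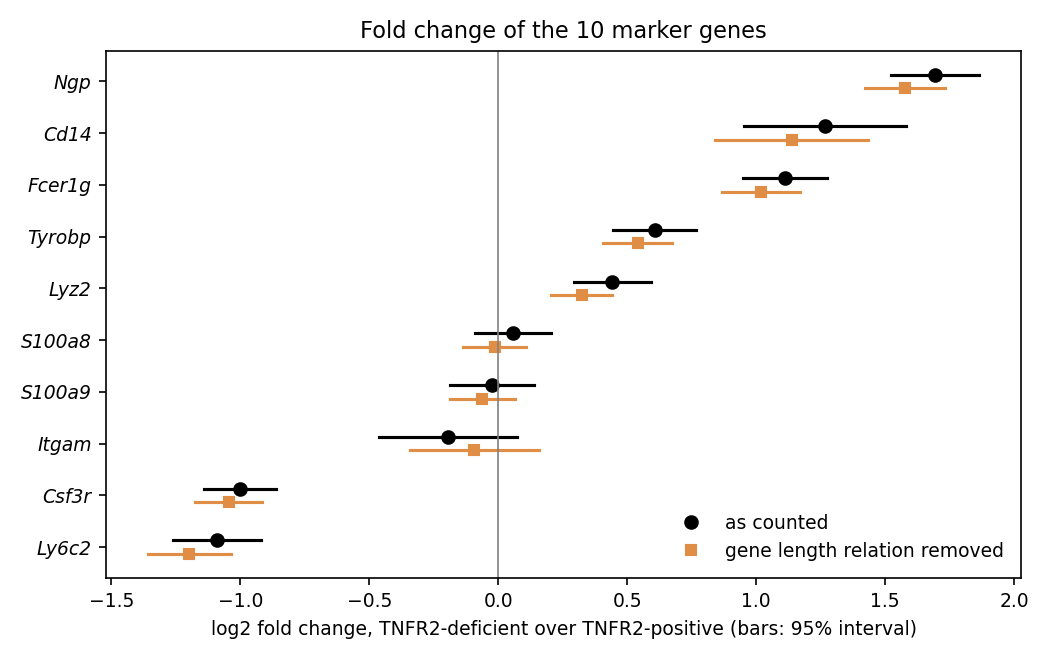
Log2 fold change (x axis) of the 10 marker genes with 95% intervals, as counted (black circles) and after each library's relation to exonic gene length was removed (orange squares). Ngp has the highest and Ly6c2 the lowest value, and the intervals of S100a8, S100a9 and Itgam span 0 in both.

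Per kilobase of exon, the order of the 10 genes changed little at the top. S100a9 led with 187.6 CPM per kb in the TNFR2-deficient and 191.0 in the TNFR2-positive libraries, followed by Lyz2 (169.7 and 124.8), S100a8 (90.4 and 86.9), Tyrobp (82.9 and 54.5) and Fcer1g (38.4 and 17.8). Below these, Ngp stood at 33.2 CPM per kb above Csf3r at 7.91 in the TNFR2-deficient libraries, whereas in the TNFR2-positive ones Csf3r was at 15.8, above Ly6c2 at 11.8 and Ngp at 10.2. Cd14 was at 6.03 and 2.49 CPM per kb. Itgam came out at 2.03 and 2.32 CPM per kb over its full exonic length, which includes the bases shared with Gm49368; if reads there were not counted, these values are too low and its place in the order is uncertain. Neighbours whose libraries overlapped were S100a8 with Tyrobp and Cd14 with Ly6c2 in the TNFR2-deficient group; in the TNFR2-positive group Cd14 overlapped Itgam as computed over that full length.

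Markers of other cell types that carry some of these transcripts moved as well. Beside 69.3% of all genes, 80% of the tested dendritic cell and 80% of the platelet markers passed. For mast cells, basophils and eosinophils 60% passed, and for B cells 77.8%. The share was 90% for Treg markers and 85.7% for T cell and pan-leukocyte genes. All 10 resident macrophage markers rose, with a summed level of 1013 to 1019 CPM against 281.4 to 290.3 CPM; C1qa and C1qc, chains of complement C1q, rose 5.89-fold and 6.52-fold (edgeR adjusted p = 1.61e-10 and 1.45e-10). All 11 NK cell markers fell, with sums of 92.6 to 97.2 against 246.9 to 269.9 CPM, among them the granule gene Nkg7 (3.78-fold lower, adjusted p = 3.42e-09) and Klra8, the activating receptor Ly49H that signals through DAP12, the product of Tyrobp (4.53-fold lower, adjusted p = 6.02e-09). Of 10 dendritic cell markers 7 fell and 1 rose (sums of 257.0 to 265.2 against 376.5 to 392.2 CPM), with the growth factor receptor Flt3 2.12-fold and Siglech 3.39-fold lower. Ccr7 and Tcf4 made up 110.8 and 98.55 CPM of these sums against 165.4 and 143.8 CPM on average. With the dependence on gene length taken out, 7 fell and 2 rose, and Tcf4 was among those that rose (log2 fold change 0.28, edgeR adjusted p = 0.00121). Of 5 tested markers of mast cells, basophils and eosinophils 2 rose and 1 fell: Ccr3, an eotaxin receptor, was 4.65-fold and Prg2 2.85-fold higher, and the stem cell factor receptor Kit 3.92-fold lower. Prg2 had only 12, 8 and 10 counts in the TNFR2-positive libraries, close to the floor. Cpa3 and Siglecf did not pass (edgeR adjusted p = 0.289 and 0.748). Mcpt8, Prss34, Epx and Fcer1a of that list had 0 counts in at least 1 library. All 7 erythroid markers rose, at sums of 18070 to 20620 against 4236 to 7010 CPM, with the red cell membrane gene Slc4a1 5.58-fold higher. Of 5 tested platelet markers 4 rose, the chemokine gene Ppbp 5.83-fold and Pf4 3.53-fold, at sums of 14.4 to 17.2 against 5.17 to 6.09 CPM. Of 9 B cell markers 5 rose and 2 fell, with Cd79b 1.85-fold and Cd79a 1.69-fold higher; with the dependence on gene length taken out, 4 rose and 0 fell. All 8 thymocyte markers rose, and of 10 Treg markers 9 fell and 0 rose. Of 7 T cell and pan-leukocyte genes 5 rose and 1 fell, with Cd4 4.71-fold and the kinase Lck 2.56-fold higher. The summed level of the neutrophil granule list was 134.1 to 138.2 against 127.4 to 139.0 CPM and that of the neutrophil surface list 513.1 to 550.1 against 501.0 to 555.2 CPM, sums over genes that moved in both directions. Cxcr4 and Spi1, which lymphocytes also express, made up 303.3 and 96.3 CPM of the latter against 295.2 and 67.6 CPM on average. The part of these other cell types in the changes of the 10 marker genes was not tested.

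Profiles most like S100a8 and Tyrobp were sought among 14217 named genes with a mean of at least 1 CPM, by the distance between mean-centred log2 levels over the 6 libraries. For S100a8 these included Gm4737 and Adck1 (distances 0.0409 and 0.0508), and for Tyrobp Aurkaip1, Mettl23 and Acads (distances 0.0415, 0.0489 and 0.0504). None of these named genes stands in a myeloid list used here, and with 6 libraries in 2 groups the measure mostly reads the group difference.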

How the data were processed

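Total RNA from TRIzol extraction was enriched for mRNA on oligo-dT beads and the libraries were PCR-amplified, per the labels' protocols. HISAT2 2.1.0 and build GRCm39 are named in the submitters' processing notes; how reads were assigned to genes (program, annotation, strand, multi-reads) is not given in the sources used here. Values are raw whole-number counts per gene, as the authors deposited them. Of 32377 identifiers, 30529 had a symbol. The edgeR quasi-likelihood test (edgeR 4.0.16, R 4.3.3; filterByExpr, TMM, glmQLFit, glmQLFTest) compared the groups with no covariate. A Benjamini-Hochberg adjusted p below 0.05, over all 17022 genes that passed the filter, counted as a call; intervals are 95%. Exonic lengths came from GENCODE M21, an older build, for 97.8% of tested genes, so it gives no coordinates here; the promoter windows carry the RefSeq table's own build, GRCm38.p6. Over tested genes with a length, the log2 fold change had a Spearman correlation of -0.298 with exonic length. The code was tested on simulated data.

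Libraries of a group differed by a chi-square of 2.43 to 18.5 per gene, above sampling noise, and none was treated as a copy. The replicate numbers share no stated source. The members and the lists were chosen with earlier results of these data known. All 10 markers are named, as are tested genes of the myeloid, adaptor, integrin and receptor lists, and the 2 of each other list with the smallest adjusted p. Prg2, Cpa3, Siglecf, Ccr7 and Tcf4, and list genes named as having 0 counts, were chosen after their values were seen. Some genes that this rule names are not reported here. Alternatives were DESeq2 1.42.0, limma-voom from limma 3.58.1, other scalings and filters, the replicate block, offsets that take out each library's dependence on exonic length (splines with 4 degrees of freedom) and leaving out each library.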

Additional observations from a re-analysis of the deposited data

How the results depend on the processing

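The 7 marker genes past the threshold kept their direction and their side of it under all 15 alternatives, with log2 fold changes of 1.58 to 1.75 for Ngp, 1.13 to 1.43 for Cd14, 1.02 to 1.16 for Fcer1g, 0.54 to 0.66 for Tyrobp, 0.32 to 0.50 for Lyz2, -1.05 to -0.95 for Csf3r and -1.20 to -1.04 for Ly6c2. Genes near 0 changed sign without passing the threshold: S100a9 was at 0.0232 with upper-quartile scaling and 0.0048 with no filter on low counts, and S100a8 at -0.0129 with the gene length relation removed; the cause was not tested. Leaving out 1 library at a time gave -0.0979 to 0.0251 for S100a9, -0.34 to -0.11 for Itgam, which passed without TNFR2-deficient replicate 1, 2 to 3 markers lower, and 1.11 to 1.19 for the ratio of the summed marker share of counts (1.16 with all libraries, 1.115 without TNFR2-positive replicate 1). Without Lyz2, the most abundant marker, that ratio was 1.06. With the replicate number as a block, 6005 genes were higher and 5851 lower, against 5983 and 5819 without it, and 5 markers higher and 2 lower, as without it. Deviations of same-numbered libraries correlated at 0.037, 0.054 and -0.061, and not every library correlated best with its own number, so the numbers were not taken as pairs. Leaving out a library left 2 in its group, whose spread was pooled with the other group's. Genes near the floor of 3 counts, such as the primary granule genes, could not be tested at this depth.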
